A study of Mus musculus with 23 samples.

Results

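Newly transcribed RNA was compared with amplified total RNA in serum-treated primary mouse embryonic fibroblasts (MEF), the connective tissue cells grown out of embryos. The comparison takes the 4 arrays titled as newly transcribed RNA and the 4 titled as amplified total RNA, 8 of the 23 arrays in the series, and pairs them by the biological replicate number in their titles. All cells came from embryos at e14.5 with the genotype C57/BLACK6, ATF1 -/+, so both kinds of RNA carry that allele and no other genotype was included. The cultures were kept for 48 h in 1% dialyzed serum and then for 2 h in medium with 10% serum, 200 µM 4-thiouridine and tritiated cytidine. The other arrays hold unamplified total RNA of the same treatment and the same kinds of RNA from cells left in 1% serum. The labels' protocol speaks of linear amplification before biotin labelling for every sample, so the titles alone separate amplified from unamplified total RNA. The titles call the replicates biological, but no label says whether they came from separate embryos or cultures, so p-values measure only the spread between these arrays.

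Cells take up 4-thiouridine, an analogue of uridine, and insert it into RNA during transcription, which leaves a thiol group by which the labelled RNA can be pulled out, here on an organomercurial matrix. The captured RNA holds what was transcribed during the labelling, whereas total RNA holds what has piled up from past synthesis and survived decay. As a general rule an mRNA that is degraded quickly makes up a larger share of new RNA than of total RNA, and a long-lived mRNA a smaller one. Serum given to resting fibroblasts is the classic trigger of the immediate early genes, whose transcripts appear within minutes and are known to be short-lived. Each array was brought to a common distribution, so every difference below is relative to the other probe sets of the array and not an amount of RNA per cell.

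Signals are given as log2(value + 16) after quantile normalization, and differences are newly transcribed minus amplified total RNA, averaged over the 4 pairs, ± the standard error (SE) of the fit. A probe set, the group of probes for a transcript, was called when limma's paired test gave an adjusted p below 0.05. Of 12422 probe sets, 2626 (21.1%) were called, 1376 (11.1%) higher and 1250 (10.1%) lower in newly transcribed RNA. With the brightest probe set standing for each of 8251 genes, the shares were 13.6% higher (1126 genes) and 12% lower (986 genes). The lower side reached further. Among the called probe sets 5 were at least 4-fold higher and 133 at least 4-fold lower, and differences ran from -3.76 to 2.20. Of those 5, 4 have a gene name, Dusp6, Foxc2, Sema7a and Smad1. The median of the called probe sets was 0.99 on the higher and -1.19 on the lower side, against 0.02 over all probe sets. The added 16 shrinks the difference of dim probe sets, and only 7 of the 2485 dimmest probe sets were called, 4 higher and 3 lower.

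Without the pairing, 503 probe sets (4.05%) were called, 152 (1.22%) higher and 351 (2.83%) lower, all of them among the 2626. On the values as deposited, with no scaling between arrays, the paired test called 0 and 2004 had an unadjusted p below 0.05. Every one of the 2626 kept its sign on the deposited values. Leaving out the pairing alters the errors and not the differences themselves.

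**Figure D1:**
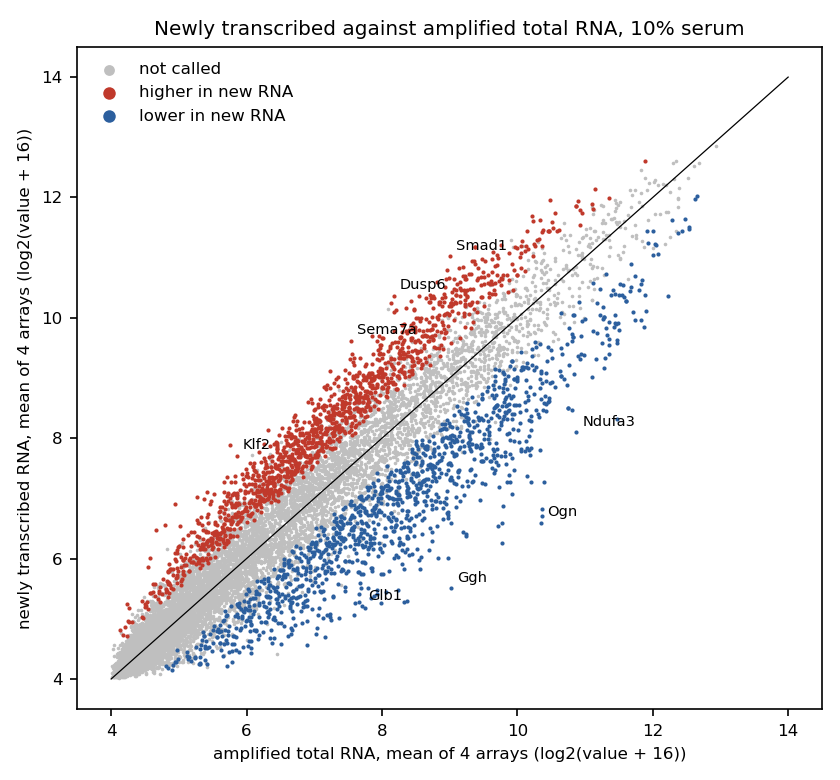
Mean log2(value + 16) signal of each of the 12422 probe sets in amplified total RNA (x axis) and newly transcribed RNA (y axis), 4 arrays each, with red for called higher, blue for called lower, grey for not called and the line at equality. Blue points lie farther from the line than red ones, down to -3.76 for Ogn.

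To show the DNA in front of genes called in each direction, the 250 bases upstream of the start site are printed for 4 genes. Zfp36 and Plk2 were higher in newly transcribed RNA, and Uqcr11 and Ogn were lower. The sequences are RefSeq's for GRCm38.p6, written 5′ to 3′ along the gene's strand. Capitals mark matches to a CArG box (the motif bound by serum response factor), to a cAMP response element (TGACGTCA), to a TATA box (TATAAA) or to a GC box (GGGCGG), searched on both strands. These 4 genes were picked after their values and motifs had been seen.
Zfp36, chr7:28379229-28379478, minus strand: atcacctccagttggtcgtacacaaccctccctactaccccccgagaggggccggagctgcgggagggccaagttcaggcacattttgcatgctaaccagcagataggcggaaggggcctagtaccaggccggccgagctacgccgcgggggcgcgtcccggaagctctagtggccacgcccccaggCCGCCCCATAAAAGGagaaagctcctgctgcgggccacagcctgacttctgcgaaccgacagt
Plk2, chr13:110394794-110395043, plus strand: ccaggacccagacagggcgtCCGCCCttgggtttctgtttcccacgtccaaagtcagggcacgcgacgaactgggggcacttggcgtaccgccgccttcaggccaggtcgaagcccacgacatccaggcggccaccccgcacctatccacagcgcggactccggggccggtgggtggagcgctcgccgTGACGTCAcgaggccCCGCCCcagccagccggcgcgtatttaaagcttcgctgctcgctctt
Uqcr11, chr10:80406822-80407071, minus strand: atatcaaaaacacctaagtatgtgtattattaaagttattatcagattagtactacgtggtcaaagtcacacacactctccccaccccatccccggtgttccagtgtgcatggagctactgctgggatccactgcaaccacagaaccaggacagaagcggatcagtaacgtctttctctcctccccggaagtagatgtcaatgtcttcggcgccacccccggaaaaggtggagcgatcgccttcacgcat
Ogn, chr13:49607765-49608014, plus strand: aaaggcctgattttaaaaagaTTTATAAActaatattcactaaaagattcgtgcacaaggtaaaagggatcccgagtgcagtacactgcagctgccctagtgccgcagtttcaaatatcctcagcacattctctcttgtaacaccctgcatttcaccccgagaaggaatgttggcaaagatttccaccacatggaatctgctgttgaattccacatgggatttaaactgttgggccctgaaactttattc
The window of Zfp36 holds a CArG box at -58 whose first base overlaps a GC box at -63. Plk2 has a cAMP response element at -62 and GC boxes at -230 and -47. Uqcr11 has none of these letters in its window, and Ogn has overlapping TATA boxes far upstream, at -229 and -227.

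A window was given for 6576 of the 8251 genes. A GC box was found in 75.2% of the 921 genes called higher, in 58.4% of the 825 called lower and in 58.9% of all 6576. The cAMP response element stood in 3.91% of the genes called higher, 2.42% of those called lower and 2.69% of all. CArG boxes stood in 2.06%, 0.97% and 1.72%, and TATA boxes in 7.82%, 8.61% and 10.9%. Of the early transcription factor genes listed below, 21 had a window, 1 with a CArG box and 1 with a cAMP response element. Of the regulators that switch signalling off, 23 had a window, 0 with a CArG box and 3 with a cAMP response element. These are counts of letters, with no test, and say nothing of which factor was bound.

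The 12 genes with the largest called positive difference, no overlap between the groups and the same sign in every pair were Foxc2, Sema7a, Smad1, Nup62, Sox11, Dnajb4, Klf2, Taf1d, Cpsf4, Nup50, Rin2 and Plk2. Foxc2 is a forkhead transcription factor of mesenchyme. Its log2 signals in pairs 1 to 4 were 9.44, 10.48, 10.50 and 10.58 in newly transcribed RNA and 9.01, 7.54, 7.84 and 8.15 in amplified total RNA. The groups did not overlap, but the first new array lay well below the other 3, and the difference was 2.12 ± 0.42 (adjusted p = 0.0194). The probe set measured here is of the kind that can match several transcripts. A second, bright probe set of Foxc2, not of that kind, differed by 1.12 and was not called (adjusted p = 0.136). Sema7a encodes a membrane-anchored semaphorin. It measured 9.61, 10.01, 9.57 and 9.30 in newly transcribed RNA and 7.19, 8.02, 7.55 and 7.39 in amplified total RNA, with every new array above every amplified one. Its difference was 2.09 ± 0.15 (adjusted p = 0.00299), or 4.25-fold. Smad1 carries signals from bone morphogenetic protein receptors to the nucleus, and its signals were 11.32, 10.50, 10.40 and 11.87 in newly transcribed RNA and 9.40, 7.80, 8.66 and 10.16 in amplified total RNA. The lowest new array was only just above the highest amplified one, at a difference of 2.02 ± 0.21 (adjusted p = 0.00432).

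Nup62 and Nup50 encode proteins of the nuclear pore. Nup62 read 10.17, 10.43, 10.58 and 9.34 in newly transcribed RNA and 8.52, 8.18, 8.56 and 7.54 in amplified total RNA. That is a difference of 1.93 ± 0.16 (adjusted p = 0.0031), with the fourth array the lowest in both kinds of RNA. Nup50 differed by 1.81 ± 0.17. Sox11, a transcription factor of embryonic progenitors, was 1.91 ± 0.18 higher and Dnajb4, an Hsp40 co-chaperone, 1.88 ± 0.15 higher. Taf1d belongs to the TBP complex that starts ribosomal RNA transcription, and Cpsf4 to the complex that cleaves pre-mRNA for polyadenylation. They differed by 1.83 ± 0.21 and 1.81 ± 0.30. Rin2, an exchange factor for the small GTPase Rab5, differed by 1.80 ± 0.16. Plk2, known as the serum-inducible kinase, measured 11.62, 11.46, 11.47 and 10.15 in newly transcribed RNA and 8.65, 9.70, 9.89 and 9.27 in amplified total RNA. The new arrays were all higher, the fourth by least, and the difference was 1.79 ± 0.33 (adjusted p = 0.0155). Second probe sets of Sema7a (1.05), Smad1 (1.85), Nup50 (0.69) and Sox11 (1.27) were called higher as well. Of these 12 genes, 8 were still called without the pairing. Smad1, Sox11, Rin2 and Plk2 were not.

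Immediate early and other early transcription factors stood furthest to the higher side of the lists. All 29 measured genes had positive differences, 23 were called higher and 0 lower, and the median was 1.24 against 0.03 over all genes. The background for such a count is the 13.6% of genes called higher, but calls depended on brightness. Of the 2485 brightest probe sets 23.02% were called higher and 20.28% lower, against 0.16% and 0.12% of the 2485 dimmest. For a list of bright genes the shares over all genes are therefore too low a background. The 79.31% of the early transcription factors called higher lay above all of these shares. Fosb, a partner of the JUN proteins in the AP-1 factor, measured 10.44, 10.87, 10.82 and 10.47 in newly transcribed RNA and 9.57, 8.49, 9.37 and 8.34 in amplified total RNA. Its 4 new arrays lay close together and above all amplified ones, at a difference of 1.71 ± 0.27 (adjusted p = 0.0102). Fos, the best known AP-1 subunit, was 10.88, 10.19, 9.14 and 11.14 in newly transcribed RNA and 9.14, 8.33, 7.31 and 10.15 in amplified total RNA. Here the groups overlapped although each new array exceeded its own pair, and the difference was 1.60 ± 0.19 (adjusted p = 0.0053).

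Jun showed 9.93, 9.39, 9.38 and 10.01 in newly transcribed RNA and 8.11, 8.13, 8.18 and 8.62 in amplified total RNA, without overlap, and a difference of 1.42 ± 0.16 (adjusted p = 0.00492). Egr1 and Egr2 are zinc finger factors induced by serum. Egr2 measured 11.69, 10.12, 9.90 and 11.66 in newly transcribed RNA and 10.32, 7.86, 8.50 and 10.10 in amplified total RNA. In both kinds of RNA arrays 1 and 4 were higher than arrays 2 and 3, so the groups overlapped, and the paired difference was 1.65 ± 0.19 (adjusted p = 0.00511). Egr1 had the same arrangement and a difference of 1.47 ± 0.28 (adjusted p = 0.0169). Dim second probe sets of Fos (-0.05) and Egr1 (0.40) were not called. Klf2, a Krüppel-like factor, was 7.30, 8.48, 7.82 and 7.25 in newly transcribed RNA and 5.16, 6.64, 5.93 and 5.69 in amplified total RNA, a difference of 1.86 ± 0.15 (adjusted p = 0.0031) without overlap.

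Myc, which drives growth genes, and Nr4a1, an orphan nuclear receptor, differed by 1.21 ± 0.26 (adjusted p = 0.0251) and 1.11 ± 0.16 (adjusted p = 0.00843). The list also held Bhlhe40 and the Krüppel-like factor Klf10, at 1.57 and 1.54. The 6 members that were not called were Rel (0.15), Nfkb2 (0.16), Fosl2 (0.32), Nr4a2 (0.45), Maff (0.74) and Jund (0.80). The list's median in the single pairs was 1.16, 1.25, 1.37 and 1.10. Without the pairing 6 of the 29 were called, all higher. Fos, Egr1, Egr2, Myc and Nr4a1 then lost their calls, while Fosb, Jun and Klf2 kept theirs.

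Regulators that switch signalling off again, listed together with serum-inducible kinases, had 19 of 27 measured genes called higher and 1 lower, with a median of 1.01. Dusp6, the phosphatase that inactivates ERK, had the largest positive difference of any gene. It measured 11.72, 9.21, 9.51 and 11.04 in newly transcribed RNA and 9.62, 7.28, 7.11 and 8.69 in amplified total RNA. The groups overlapped because arrays 1 and 4 were about as much brighter than arrays 2 and 3 in one kind of RNA as in the other. Within pairs the difference was 2.20 ± 0.15 (adjusted p = 0.00299), or 4.58-fold. A second, dim probe set of Dusp6 differed by 0.13 and was not called. Without the pairing 3 of the 27 genes were called higher and 0 lower, and Dusp6 was not among them (limma, adjusted p = 0.168).

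Socs3, a suppressor of cytokine signalling, differed by 1.70 ± 0.40 (adjusted p = 0.0309), with a first new array of 7.76 below 3 of the amplified ones, and its second probe set, at 1.22, was not called (adjusted p = 0.0509). Gadd45a, a growth arrest and stress protein, measured 10.75, 9.83, 9.73 and 11.22 in newly transcribed RNA and 8.94, 8.79, 7.75 and 9.33 in amplified total RNA. Its groups did not overlap and differed by 1.68 ± 0.20 (adjusted p = 0.00519). Also called higher were Rgs16 (1.65) and Rgs2 (1.37), which limit G protein signalling, Socs2 (1.50), Nfkbia (1.25), the inhibitor of NF-κB, and Errfi1 (0.99), an inhibitor of the EGF receptor. The gene called lower was Nfkbie (-0.69), another NF-κB inhibitor. Spry4, an inhibitor of receptor tyrosine kinase signalling, was at -0.15 and not called.

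Among ID, SMAD, HES and Notch pathway genes, which act downstream of BMP, TGF-β and Notch ligands, 13 of 21 were called higher and 0 lower, with a median of 1.07. The called members included the inhibitory helix-loop-helix genes Id1 (1.17), Id2 (1.07), Id3 (1.00) and Id4 (1.39). Hey1, a repressor induced by Notch, measured 9.85, 7.71, 8.36 and 9.52 in newly transcribed RNA and 7.40, 6.06, 6.93 and 8.23 in amplified total RNA, with overlapping groups and a difference of 1.70 ± 0.22 (adjusted p = 0.00637). The receptor Notch1 itself differed by 1.30. Members not called were Smad3, Smad4, Smad5, Smad6, Ski, Snai1, Twist1 and Notch2, from 0.23 for Smad5 to 1.12 for Snai1. Without the pairing 2 of the 21 were called higher and 0 lower.

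Of 33 secreted signals and the enzymes that make them, 15 were called higher and 2 lower (median 0.80). Cxcl1, a chemokine that draws neutrophils, measured 9.77, 9.10, 8.15 and 10.34 in newly transcribed RNA and 8.29, 7.56, 6.60 and 7.90 in amplified total RNA. The groups overlapped slightly and the difference was 1.75 ± 0.21 (adjusted p = 0.00515). Has2, which makes hyaluronan, was 9.21, 8.28, 8.76 and 9.40 in newly transcribed RNA and 6.67, 7.42, 7.19 and 7.89 in amplified total RNA, a difference of 1.62 ± 0.27 (adjusted p = 0.0122) without overlap. Hbegf and Ereg, both ligands of the EGF receptor family, differed by 1.45 and 1.35, and Ptgs2, the inducible prostaglandin synthase, by 1.26. The 2 genes called lower were Cxcl12 (-1.57) and Ccl5 (-0.90), and 2 dimmer probe sets of Cxcl12 stood at 0.07 and 0.13. The test without pairing called 3 of the 33 higher and 0 lower.

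Factors that themselves degrade mRNA or recruit the decay machinery had 12 of 25 members called higher and 0 lower, with a median of 0.65. Btg2, which brings the CCR4-NOT deadenylase to mRNAs, measured 11.96, 10.30, 10.62 and 10.44 in newly transcribed RNA and 9.84, 8.54, 9.04 and 9.16 in amplified total RNA. All new arrays were above all amplified ones, and the difference was 1.69 ± 0.18 (adjusted p = 0.00432). Zfp36 (tristetraprolin), which binds AU-rich elements and whose upstream window is printed above, was 8.18, 8.85, 9.19 and 8.09 in newly transcribed RNA and 7.18, 6.95, 7.38 and 6.70 in amplified total RNA. Its groups stood apart at 1.53 ± 0.19 (adjusted p = 0.006). Its relatives Zfp36l1 (1.45) and Zfp36l2 (1.48) were called as well, and so was Dcp1a (1.64), a part of the decapping complex. The called members also included Tob1 (1.39), Noct (1.39), Cnot7 (0.90) and Cnot2 (0.96). Several general decay enzymes and RNA-binding proteins were not called, among them Xrn1 (0.19), Parn (-0.16), Exosc10 (-0.37) and Pabpc1 (-0.39). Without the pairing 2 of the 25 were called higher and 0 lower.

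The zinc finger genes named Zfp, mostly DNA-binding transcription factors, held 42 genes called higher and 1 lower of 89 (median 0.65). The medians of the single pairs were 0.65, 0.64, 0.63 and 0.63. The name does not make a family of one function: the RNA-binding Zfp36 genes are among the 42. Zfp281 (1.66), Zfp639 (1.44), Zfp644 (1.35) and Zfp282 (1.30) are examples, and the gene called lower was Zfp106 (-0.96). The test without pairing called 8 of the 89 higher and 0 lower.

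Chromatin regulators had 12 genes called higher and 5 lower of 38 (median 0.22), and without the pairing 1 was called higher and 0 lower. The Polycomb genes Eed (1.57), Bmi1 (1.20), Rnf2 (0.99), Suz12 (0.88) and Ezh2 (0.75) were called higher and Ezh1 (0.28), Ring1 (0.15) and Cbx7 (-0.21) were not called. Kmt2a (1.44), a histone methyltransferase of the opposing Trithorax group, was higher too. Hmga2, an architectural factor of embryonic and proliferating cells, measured 9.58, 8.49, 9.69 and 9.49 in newly transcribed RNA and 7.39, 6.66, 7.92 and 8.12 in amplified total RNA and differed by 1.79 ± 0.17 (adjusted p = 0.0039). Called lower were 3 members of SWI/SNF remodelling complexes, Smarca2 (-1.06), Smarcb1 (-1.03) and Smarca4 (-0.65), with Hdac1 (-0.90) and Kat2b (-0.73). The SWI/SNF members Smarce1 (-0.18) and Smarcc1 (0.15) were not called.

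Nucleolar and ribosome biogenesis genes had 9 of 27 called higher and 1 lower (median 0.56), led by Rrs1 (1.53), Bysl (1.22) and Surf6 (1.21). The gene called lower was Nop10, a small protein of box H/ACA particles (-1.52). Without the pairing 1 gene of this list was called higher and 0 lower. Cholesterol and fatty acid synthesis had 7 of 20 called higher and 0 lower, among them the sterol enzymes Sqle (1.14) and Hmgcs1 (1.09). Other sterol enzymes, such as Fdps (-0.81), Mvk (-0.50), Nsdhl (-0.13) and Dhcr7 (0.08), were not called, and neither were the fatty acid genes Fasn (0.25), Scd1 (-0.82) and Acly (-0.54). Without the pairing 0 of the 20 were called.

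**Figure D2:**
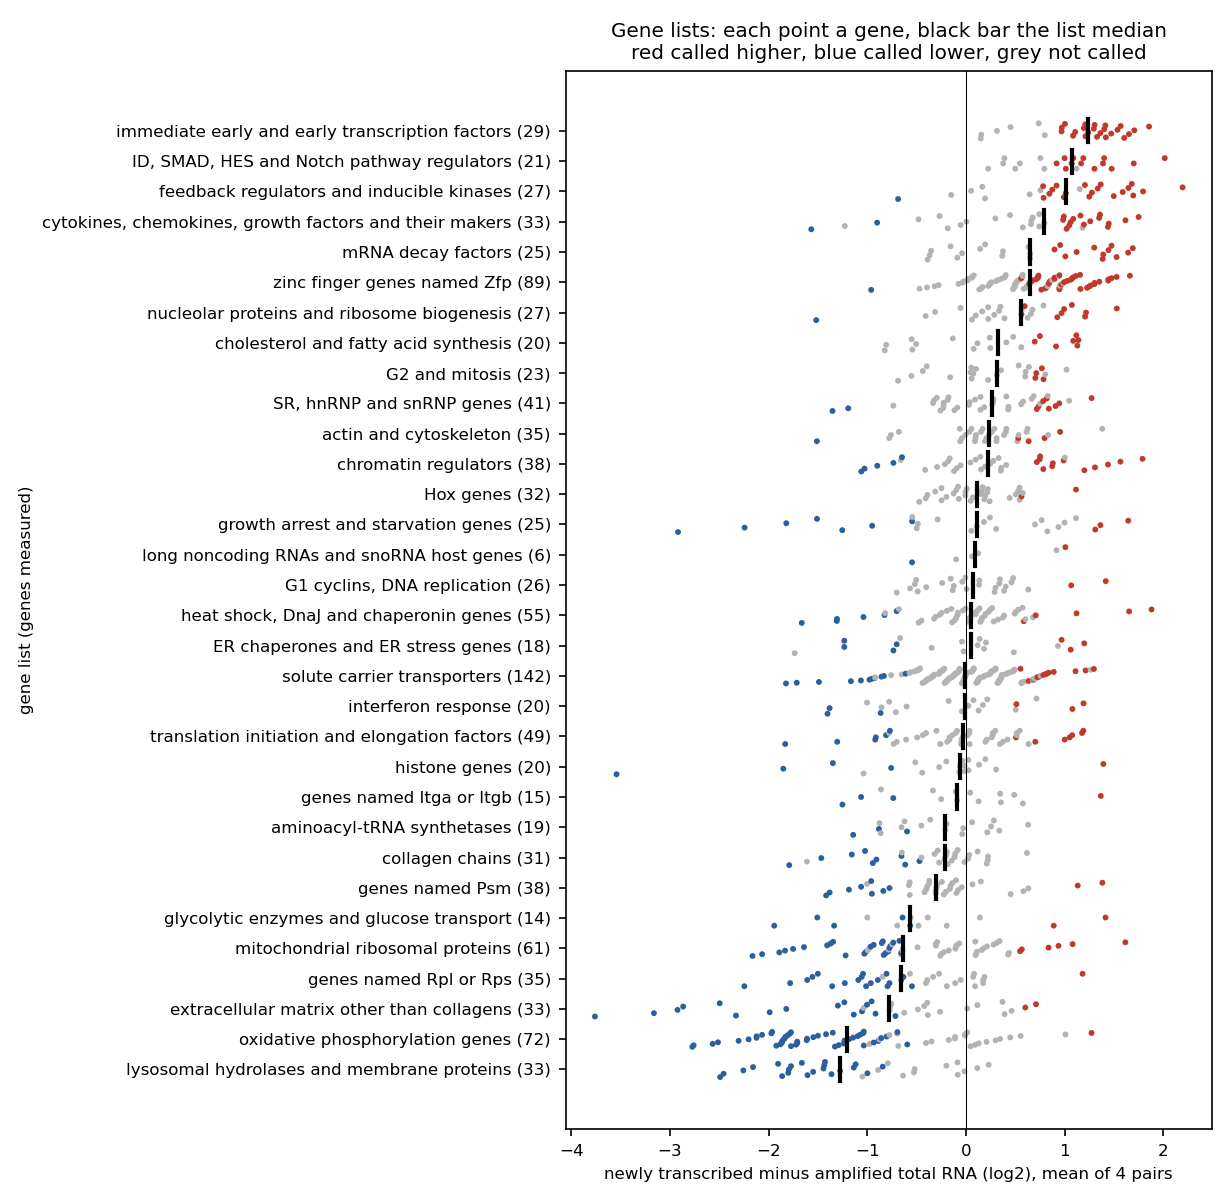
Difference between newly transcribed and amplified total RNA (log2, mean of 4 pairs, x axis) for each gene of 32 lists (y axis, with the number of genes measured). Red points are genes called higher, blue called lower, grey not called, and black bars are list medians, from -1.27 for lysosomal genes to 1.24 for the early transcription factors.

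At the lower end, the 12 genes chosen by the same rule were Ogn, Itm2a, H3c14, Ggh, Apoe, Dcn, Agtr2, Cpxm2, P3h3, Cdkn1c, Prdx4 and Fkbp7. Ogn (osteoglycin) is a small leucine-rich proteoglycan of the matrix. Its signals were 6.72, 6.33, 6.42 and 6.92 in newly transcribed RNA and 10.02, 10.54, 9.96 and 10.90 in amplified total RNA. The groups lay more than 3 log2 units apart, and the difference of -3.76 ± 0.19 (adjusted p = 0.00253) equals 13.5-fold lower. A second probe set of Ogn gave -3.12. Itm2a, an integral membrane protein, measured 7.63, 5.97, 5.78 and 7.44 in newly transcribed RNA and 10.45, 10.45, 9.67 and 10.91 in amplified total RNA, with a difference of -3.67 ± 0.28 (adjusted p = 0.00299). Ggh, a lysosomal hydrolase of folylpolyglutamates, was 5.93, 5.40, 4.96 and 5.73 in newly transcribed RNA and 9.19, 9.19, 8.25 and 9.47 in amplified total RNA. It was dim in newly transcribed RNA, where the floor of the scale is 4, and differed by -3.52 ± 0.16 (adjusted p = 0.00253). Dcn (decorin), another matrix proteoglycan, showed 8.65, 6.98, 8.13 and 9.49 in newly transcribed RNA and 11.06, 11.02, 11.75 and 12.07 in amplified total RNA, without overlap, and -3.16 ± 0.31 (adjusted p = 0.00382).

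Apoe, a lipid carrier protein, measured 7.61, 6.47, 6.04 and 4.89 in newly transcribed RNA and 8.49, 10.50, 10.53 and 9.57 in amplified total RNA. All new arrays were lower, but the pairs differed widely, from -0.88 to -4.68, around a mean of -3.52 ± 0.64 (adjusted p = 0.0148). Cdkn1c (p57), an inhibitor of cyclin-dependent kinases, was 7.37, 6.35, 6.30 and 7.47 in newly transcribed RNA and 9.33, 9.59, 9.91 and 10.32 in amplified total RNA, and differed by -2.92 ± 0.28 (adjusted p = 0.00379). Prdx4, a peroxidase of the secretory pathway, had 7.10, 7.16, 6.95 and 7.07 in newly transcribed RNA and 9.66, 10.23, 9.74 and 10.06 in amplified total RNA. Both groups were tight, and the difference was -2.85 ± 0.15 (adjusted p = 0.00253). Fkbp7, a prolyl isomerase of the endoplasmic reticulum, and P3h3, a collagen prolyl hydroxylase, differed by -2.83 ± 0.18 and -2.97 ± 0.50. Agtr2, an angiotensin II receptor, and Cpxm2, a carboxypeptidase-like secreted protein, differed by -3.06 ± 0.24 and -3.04 ± 0.20.

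H3c14, a histone H3 gene, differed by -3.54 ± 0.25. Histone genes are near-identical copies and its probe set carries the name suffix of a relaxed design rule, so which copy it measures is uncertain. Of these 12 genes, 11 were called without the pairing, all but P3h3. Leaving out pair 2, 3 or 4 took away the call of Apoe, P3h3 and Foxc2 each time. Leaving out pair 2 also took that of Plk2 and Cpsf4, and leaving out pair 3 that of Plk2.

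**Figure D3:**
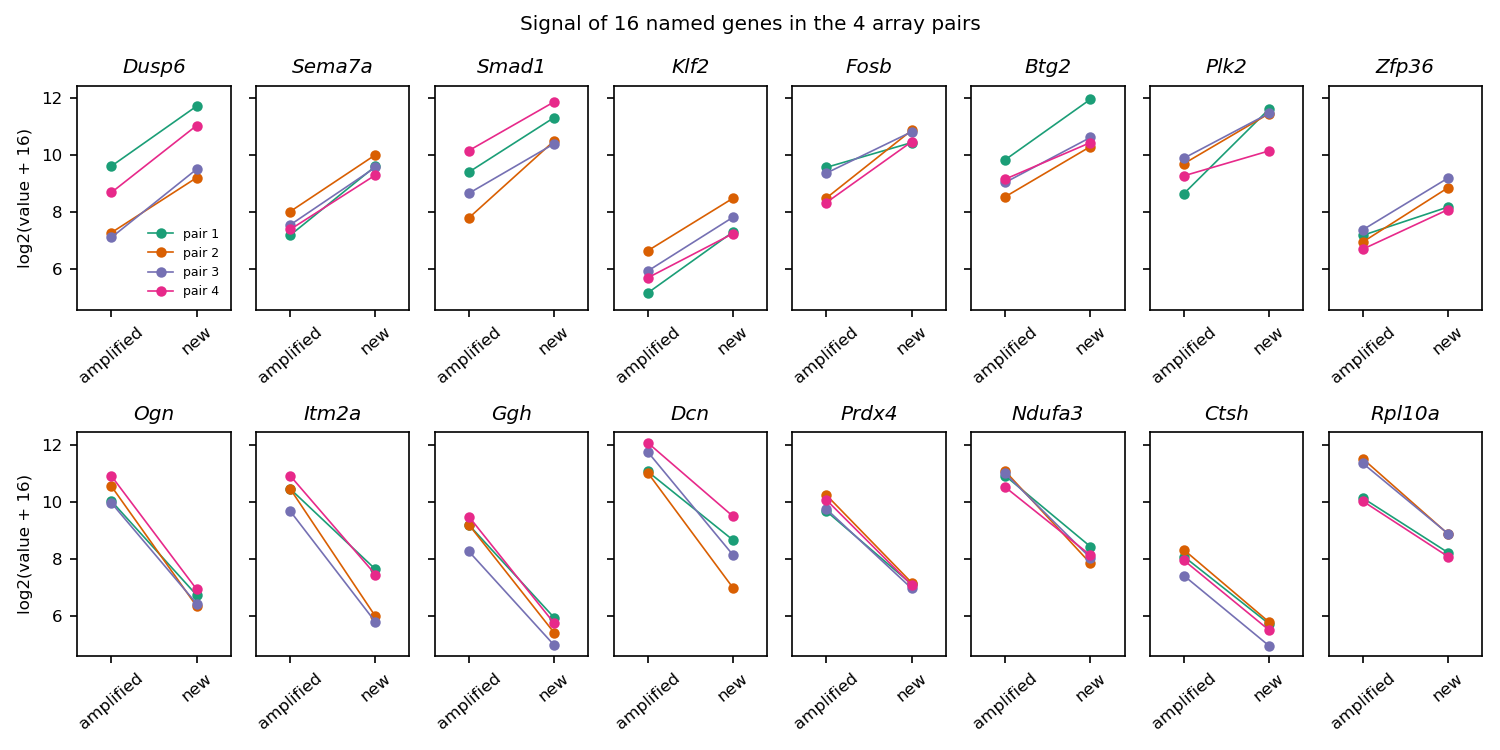
Log2(value + 16) signal of 16 named genes in amplified total (left) and newly transcribed RNA (right), with a line for each of the 4 array pairs. Lines go up in all pairs of the 8 genes in the top row and down in all pairs of the 8 in the bottom row, while the level at which they start differs between pairs, as for Dusp6.

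Oxidative phosphorylation, the mitochondrial machinery that makes ATP, had the largest share of genes called lower among the 32 lists. Of 72 nuclear genes measured, 49 (68.06%) were called lower and 1 higher, with a median of -1.21. The share called lower was 12% of all genes and 20.28% of the 2485 brightest probe sets. In 39 of the 72 the groups did not overlap. The share over all probe sets, dim ones included and not by genes, was 11.1% (4.56% higher and 6.54% lower). Without the pairing 27 of the 72 were called lower and 0 higher. Complex I genes led the list. Ndufa3 measured 8.42, 7.83, 8.02 and 8.12 in newly transcribed RNA and 10.91, 11.07, 10.99 and 10.51 in amplified total RNA, more than 2 log2 units apart in every pair, at -2.77 ± 0.19 (adjusted p = 0.00299). Its probe set is of the kind that can match several transcripts, and its other one gave -1.07, also called. Ndufa13 was 6.12, 6.58, 6.33 and 6.75 in newly transcribed RNA and 8.14, 9.51, 9.13 and 10.03 in amplified total RNA and differed by -2.76 ± 0.23 (adjusted p = 0.0031).

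Uqcr11, a small subunit of complex III, showed 4.46, 5.97, 5.75 and 5.45 in newly transcribed RNA and 6.85, 8.72, 8.65 and 7.46 in amplified total RNA. Both groups spread by more than 1 log2 unit and still did not overlap, at -2.51 ± 0.19 (adjusted p = 0.00299). For ATP synthase, Atp5e measured 4.99, 5.38, 5.04 and 5.31 in newly transcribed RNA and 7.14, 8.58, 7.80 and 7.47 in amplified total RNA, a difference of -2.57 ± 0.22 (adjusted p = 0.0031). The cytochrome oxidase genes Cox7b (-1.97), Cox4i1 (-1.86) and Cox5b (-1.84) and the succinate dehydrogenase genes Sdhb (-1.29) and Sdhc (-1.07) were called lower, whereas Sdha (-0.70) was not. The member called higher, Ndufaf4 (1.27), is an assembly factor and not a subunit. Another assembly factor, Ndufaf1, was at 0.45 and not called.

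The translation machinery of mitochondria and cytosol lay on the same side. Of 61 mitochondrial ribosomal protein genes 24 were called lower and 6 higher (median -0.64). Mrpl23 (-2.16), Mrps21 (-2.06) and Mrps15 (-1.89) were the lowest, and Mrps2 (1.62) and Mrpl9 (1.08) the highest. The medians of single pairs varied, at -0.79, -0.43, -0.35 and -0.27, and over all 76 probe sets of these genes the median was -0.27. Of 35 genes named Rpl or Rps, 19 were called lower and 1 higher (median -0.65), and the latter, Rpl7l1 (1.18), is a paralogue that is not a standard ribosomal protein.

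Rpl10a measured 8.21, 8.87, 8.88 and 8.07 in newly transcribed RNA and 10.13, 11.51, 11.35 and 10.02 in amplified total RNA, a difference of -2.25 ± 0.18 (adjusted p = 0.0031) without overlap. Rps10 (-1.78) and Rps7 (-1.61) were also called lower, while Rps29 (0.19), Rps14 (0.18) and Rpl32 (0.17) were not called. Ribosomal protein genes have many near-identical pseudogenes, so the probe sets may not separate them. The test without pairing called 4 of the 35 lower and 0 higher, and of the mitochondrial ribosomal genes 6 lower and 1 higher. Translation initiation and elongation factors split evenly, with 7 of 49 higher and 6 lower, for example Eif1a (1.18) against Eif3k (-1.83). None of these factors was called without the pairing.

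The lysosome, the compartment where macromolecules are broken down, had 21 of 33 genes called lower and 0 higher, the list with the lowest median (-1.27). Glb1, the acid β-galactosidase, measured 4.97, 5.67, 5.90 and 4.31 in newly transcribed RNA and 6.52, 8.45, 8.18 and 7.67 in amplified total RNA. The groups did not overlap and differed by -2.49 ± 0.30 (adjusted p = 0.00534). Ctsh, a cathepsin, was 5.71, 5.77, 4.94 and 5.49 in newly transcribed RNA and 8.07, 8.31, 7.40 and 7.94 in amplified total RNA, all new arrays more than 1 log2 unit below all amplified ones, at -2.46 ± 0.13 (adjusted p = 0.00253). Ctsa (-2.25), Man2b1 (-2.16), Asah1 (-1.90), Hexa (-1.80) and Lamp2 (-1.44) were called lower as well. Ctsd, another cathepsin, Npc1, a cholesterol transporter, and Cd63, a membrane tetraspanin, were not called, at -0.52, -0.08 and -0.02. Without the pairing 8 of the 33 were called lower and 0 higher.

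Extracellular matrix genes other than collagens had 16 of 33 called lower and 2 higher (median -0.77). Besides Ogn and Dcn these were the proteoglycans Lum (lumican) and Fmod (fibromodulin). Lum measured 6.92, 6.12, 6.63 and 9.43 in newly transcribed RNA and 10.26, 9.57, 9.42 and 11.53 in amplified total RNA. The fourth new array just exceeded the lowest amplified one, so the groups overlapped, and the difference was -2.92 ± 0.25 (adjusted p = 0.0031). Fmod differed by -2.87 ± 0.14, Nid2 (-2.50) and Lamb1 (-1.99) are basement membrane genes, and Postn (-1.82) a matricellular one. The genes called higher were Timp1 (0.71), an inhibitor of matrix proteases, and Tgfbi (0.60), a matrix protein induced by TGF-β. Fn1, fibronectin, was at -0.26 and not called. Of 31 collagen genes 9 were called lower and 0 higher (median -0.22), led by Col3a1 (-1.79) and Col14a1 (-1.47). Without the pairing 6 of the matrix genes and 3 of the collagen genes were called lower and 0 higher.

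Growth arrest genes had no common direction, with 7 of 25 lower and 3 higher. Cdkn1c, Gas6 (-2.24) and Gas2 (-1.82) were low. Ccng2, a cyclin of resting cells, measured 9.31, 7.36, 7.17 and 8.86 in newly transcribed RNA and 7.62, 5.46, 5.61 and 7.43 in amplified total RNA and differed by 1.65 ± 0.15 (adjusted p = 0.00313) with overlapping groups. Klf9 (1.36) and Bcl6 (1.31) were the others called higher. In glycolysis 5 of 14 genes were called lower, Ldhb (-1.94), Hk1 (-1.51), Pfkm (-1.33), Tpi1 (-0.64) and Pgk1 (-0.56), and 2 higher, the hexokinase Hk2 (1.42) and the glucose transporter Slc2a1 (0.89). Of the genes named Psm, nearly all of them proteasome subunits, 8 of 38 were called lower, with Psmb6 (-1.42) at the bottom, and 2 higher, Psmd11 (1.38) and Psmd5 (1.13). The Psm genes were mostly bright, and their 21.05% called lower was close to the 20.28% of the 2485 brightest probe sets. In the test without pairing, growth arrest had 1 gene called higher and 1 lower, glycolysis 0 and 2, and the Psm genes 0 in either direction.

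The other lists lay closer to the background. Of 41 splicing genes 8 were called higher and 2 lower, the former including Hnrnpa1 (1.27) and 4 of the SR protein genes, Srsf1, Srsf2, Srsf4 and Srsf10. Heat shock, DnaJ and chaperonin genes had 5 higher and 6 lower of 55. The 5 were the Hsp40 genes Dnajb4 (1.88), Dnajb1 (1.65), Dnajb2 (0.71) and Dnaja2 (0.59) and the small heat shock gene Hspb8 (1.12). In the actin and cytoskeleton list 4 of 35 were called higher, Tpm2, Tpm3, Vcl and Actn4, and 1, Tmsb10 (-1.51), lower. Actb, β-actin, read 10.15, 5.36, 5.83 and 11.78 in newly transcribed RNA and 11.34, 6.98, 7.07 and 10.82 in amplified total RNA. Arrays 1 and 4 exceeded arrays 2 and 3 by more than 3 log2 units in both kinds of RNA, and its difference of -0.78 ± 0.43 (adjusted p = 0.281) was not called. The control probe sets for the 3′ end of actin had no such split, at 12.11, 12.58, 12.61 and 12.48 in newly transcribed and 11.08, 11.92, 11.98 and 12.33 in amplified total RNA.

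G1 and replication genes had 2 of 26 called higher, Cdc6 (1.42) and Cdc25a (1.07), and 0 lower. G2 and mitosis genes had 4 of 23 higher, Ube2c, Cdk1, Ccna2 and Ccnf, and 0 lower. Of 20 histone genes 1 was higher, H2ax (1.39), and 4 were lower, H3c14, H2az2 (-1.85), H2bc1 (-1.35) and H1f2 (-0.76). Of 20 interferon response genes 3 were higher, Irf1 (1.08), Irf9 (1.19) and Stat3 (0.51), and 3 lower, B2m (-1.40), Psmb8 (-1.38) and Tap1 (-0.86). Of 18 ER chaperone and stress genes, 3 of the stress response, Xbp1 (1.20), Herpud1 (1.06) and Trib3 (0.97), were called higher. The 4 called lower were the chaperones and isomerases Pdia3 (-1.23), P4hb (-1.23), Hsp90b1 (-0.73) and Dnajb11 (-0.70). The other 11 were not called, among them the stress genes Atf4 (0.93) and Ddit3 (-0.02) and the chaperones Hspa5 (0.12) and Canx (0.49). The remaining lists were solute carriers (13 higher and 11 lower of 142), Hox genes (2 and 0 of 32), tRNA synthetases (0 and 3 of 19), genes named Itga or Itgb (1 and 3 of 15) and long noncoding RNAs (1 and 1 of 6). The called members of the last 4 were Hoxa9 and Hoxb6, then Mars1, Vars and Eprs, then Itga5 against Itgb2, Itgb5 and the binding protein gene Itgb1bp1, and last Snhg5 against Gas5. Without the pairing 0 genes were called in the splicing, actin, mitosis, ER, tRNA synthetase, integrin and long noncoding lists, and at most 2 in either direction in the other lists from splicing on.

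The label of the cells was checked against 16 fibroblast markers, most of which were bright in both kinds of RNA: for example, the means in amplified total RNA were 12.29 for Col1a2, 11.37 for Col5a1 and 10.03 for Thy1. Exceptions were Vim, vimentin, at 5.06 in amplified and 5.58 in newly transcribed RNA, and the transcription factor gene Prrx1, at 5.94 and 5.86. Fap, at 5.06, was dim in newly transcribed RNA. The summed linear signal of the 16 was 11840 to 19120 in the new and 22600 to 27550 in the amplified arrays, and 5 were called lower and 0 higher, all of them matrix genes except the membrane protease Fap.

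Markers of macrophages were also present. Their 14 genes summed to 3141 to 8124 in the new and 3594 to 12150 in the amplified arrays, with Cd14 at 10.25 and Csf1r at 8.94 in amplified total RNA. Of the 14, 5 were called lower, Adgre1, Tyrobp, C1qb, C1qa and Lyz2, and 0 higher, while Csf1r (0.05) and Cd14 (0.48) were not called. Over all 23 probe sets of the 14 genes the median was -0.08, against -0.86 for the brightest ones. Both kinds of RNA are bulk RNA, so the cells that a transcript came from cannot be told apart. The part that macrophages have in the lower lysosomal genes was not tested.

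Epithelial markers summed to at most 240.2 in any of these 8 arrays, erythroid markers to at most 110.5 and endothelial ones to at most 516.2. Cdh5, which defines endothelium, was at 4.24 in amplified total RNA, near the floor of the scale at 4. Kdr and Flt1 were called higher (0.71 and 1.23). Muscle markers reached at most 1864 and neural markers 2485, and of these Nes and Mbp were called higher (0.76 and 0.75). None of the epithelial, erythroid and muscle markers was called.

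The arrays themselves differed. Median deposited signals ran from 24.2 to 46.9 in the new and from 16.3 to 75.2 in the amplified arrays. The control probe sets for the 3′ end of Gapdh exceeded those for its 5′ end by 2.08 ± 0.86 (SD, n = 4) in newly transcribed, 1.55 ± 0.75 (SD, n = 4) in amplified total and -0.21 ± 0.11 (SD, n = 4) in unamplified total RNA. For actin the values were 2.16 ± 0.71, 2.22 ± 0.55 and 0.37 ± 0.22 (SD, n = 4 each), and for pyruvate carboxylase 1.64 ± 0.52, 1.97 ± 0.76 and 0.74 ± 0.55. In these 3 controls newly transcribed and amplified total RNA lay within an SD of each other, and unamplified RNA lay lower. The dim transferrin receptor control had 1.08 ± 0.50, 0.57 ± 0.36 and 0.71 ± 0.17, with the new and amplified means further apart. The part of transcript ends in single genes was not tested.

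**Figure D4:**
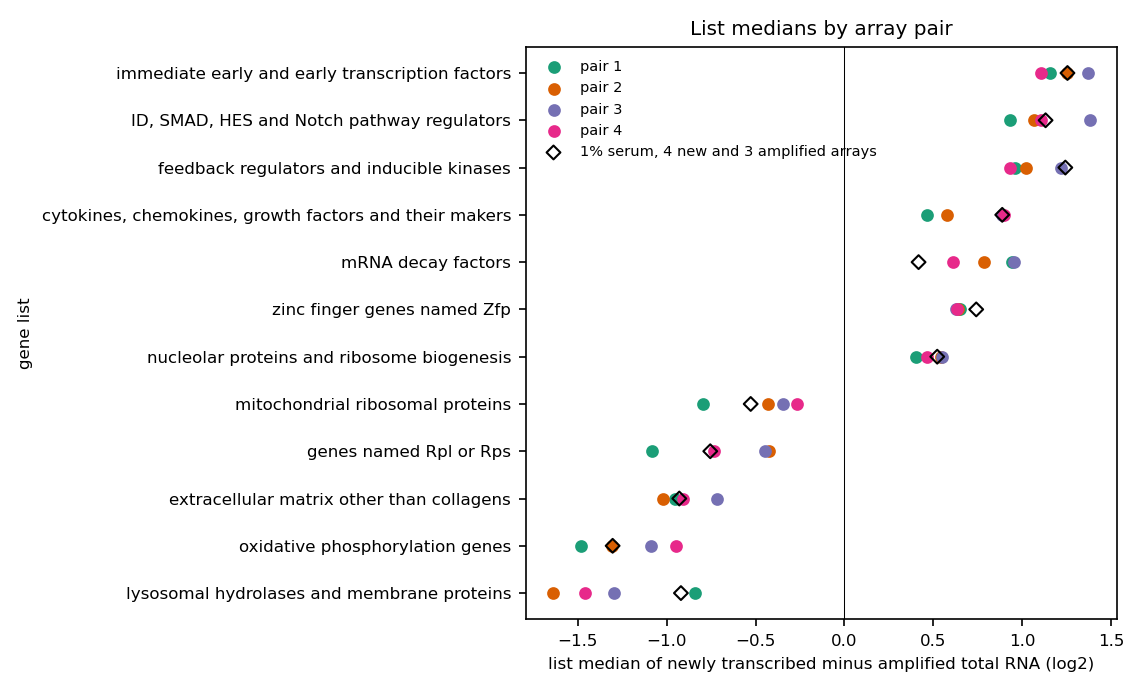
Median difference (log2, x axis) of 12 gene lists (y axis) in each of the 4 array pairs in 10% serum (coloured points) and in 1% serum (open diamonds, group means of 4 new and 3 amplified arrays). Points of each list stay on one side of 0 in all 4 pairs and in 1% serum. Some lists not plotted changed side between pairs, as growth arrest (0.19 in pair 1, -0.21 in pair 3) and tRNA synthetases (0.11 in pair 1, -0.60 in pair 2).

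Whether the difference between new and total RNA depends on serum was asked with the arrays of cells kept in 1% serum, 4 new and 3 amplified. The interaction test over these 15 arrays, by limma without pairing, called 0 of 12422 probe sets (0%), with 201 at an unadjusted p below 0.05. With the replicate number as a block it also called 0, with 586 at an unadjusted p below 0.05. Both counts are below what chance alone would give at that threshold. The 0 calls therefore do not show that serum has no effect on the difference. In 1% serum alone the test without pairing called 394 probe sets (3.17%), 145 (1.17%) higher and 249 (2%) lower. Of the 1376 probe sets called higher in 10% serum 98.8% had a positive difference in 1% serum, and of the 1250 called lower 98.4% had a negative one, when 48.2% of all probe sets were positive there. The arrays of the 2 conditions are different ones, but they share replicate numbers, and no label says what a number shares.

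The 12 lists plotted by pair lay on the same side of 0 in 1% serum. The medians of the translation factors, solute carriers and long noncoding RNAs and of the neural and erythroid markers, all close to 0, changed side. The median of the early transcription factors was 1.25 in 1% serum, that of the feedback list 1.24, that of oxidative phosphorylation -1.30 and that of the lysosome -0.92. For single genes the values in 1% serum were 2.05 for Dusp6, 2.50 for Klf2 and 1.76 for Jun. On the lower side they were -2.86 for Ogn, -3.10 for Ndufa3 and -2.28 for Ctsh. Fosb stood at 0.97, Sema7a at 1.21 and Agtr2 at -1.77, all nearer to 0 than in 10% serum. None of these departures was called, which does not show that they are absent.

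Set against unamplified total RNA of the same treatment, newly transcribed RNA had 2376 probe sets called (19.1%), 1175 (9.46%) higher and 1201 (9.67%) lower, in a test without pairing. By genes the shares were 21.6% in all, 11% higher and 10.6% lower. The 2 comparisons share the new arrays, so their values are only given side by side. The early transcription factors had a median of 0.99 against unamplified RNA, with 13 of 29 called higher and 1, Maff (-1.53), lower. Oxidative phosphorylation had -0.97, with 43 of 72 lower and 3, Ndufaf4, Ndufaf1 and Uqcrc2, higher, the lysosome -1.35, with 21 of 33 lower and 0 higher, and the Zfp genes 0.68, with 29 of 89 higher and 0 lower. The median of the mitochondrial ribosomal genes was -0.11, with 12 of 61 lower and 10 higher, where amplified RNA gave -0.64. Other lists of the higher side also had smaller medians or fewer calls here. Secreted signals had 0.28, with 5 of 33 higher, and the feedback list 0.60, with 8 of 27 higher. The ID, SMAD, HES and Notch list had 0.61, with 6 of 21 higher, and these 3 lists had 0 lower. Of the 20 cholesterol and fatty acid genes 2 were higher and 2 lower.

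Single genes depended on which total RNA was used. Zfp36 was 0.29 against unamplified and 1.53 ± 0.19 against amplified RNA, and Plk2 0.56 and 1.79 ± 0.33. The largest differences from unamplified RNA were in Nup54 (4.37), Nup50 (3.39), Rgs16 (3.38), Ints5 (3.26) and Taf1d (3.24) on the higher side. On the lower side they were in Ogn (-4.73), Grb10 (-4.06), Nfix (-3.96), Apoe (-3.79) and Cd99 (-3.60). Grb10, a growth factor receptor adaptor, and Nfix, a nuclear factor I gene, were not called against amplified RNA by their brightest probe sets, at -0.48 ± 0.30 (adjusted p = 0.352) and -0.54 ± 0.20 (adjusted p = 0.118). A second probe set of Grb10 was called lower (-0.65, adjusted p = 0.0359) and the last one was not called (0.41). The mean signals of the brightest probe sets were 4.59 and 6.56 in newly transcribed, 5.07 and 7.10 in amplified and 8.66 and 10.52 in unamplified RNA, so the amplified arrays stood with the new ones.

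The genomic span of a gene, from its first to its last base in RefSeq (8237 of 8251 genes, 99.8%), was set beside its difference. The median span was 22400 bases for genes called higher, 15000 for genes called lower and 19200 for all. In the fifth with the shortest genes 11.3% were called higher and 14.6% lower, and in the fifth with the longest 13.5% and 9.59%. The rank correlation across genes was weak (Spearman's rho = 0.09, n = 8237), and genes are not independent replicates.

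Several probe sets were available for 2073 genes, of which 577 were called by their brightest one. In 181 of these another probe set was called in the same direction, in 391 no other was called, and in 5 another was called in the opposite direction. The 5 were Cox6c, Egfr, Gas5, Ifnar2 and Lyz2. Gas5, a noncoding host of small nucleolar RNAs, stood at -0.55 by its brightest probe set and at 1.09 by another, and Lyz2, a macrophage lysozyme, at -1.26 and 0.95. The direction of these 5 genes rests on the probe set taken, also where they are counted in the lists above. Among the named genes, further probe sets that were not called included those at 0.36 for Kmt2a, -0.08 for Man2b1, -0.51 for Itgb1bp1 and 0.28 and 0.81 for Psmd11. For Apoe (-0.15) and Agtr2 (0.14) the further probe sets were dim and not called. The brightest probe sets of Socs3, Ints5, Actb and H2bc1, like those of Foxc2 and Ndufa3, are of the kind that can match several transcripts. By their name suffix, those of Zfp36, Bysl and Grb10 can do so too.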

How the data were processed

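The deposited values were linear signal intensities, 1 per Affymetrix probe set and array, in the table the authors deposited. Per the labels' protocols, RNA was reverse-transcribed, amplified linearly and labelled with biotin by T7 transcription. How the probes were summarised, and whether arrays were scaled before deposit, is not given in the sources used here. Arrays were grouped by their titles. All 23 arrays, with 12488 probe sets, were quantile normalized together, and the deposited intensities were taken to log2(value + 16). The 66 control probe sets were then left out, and no filter on dim probe sets was applied. Only 9 of the values on the 8 arrays were 0. The number of arrays limits the precision.

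limma 3.58.1 in R 4.3.3 was used (lmFit and eBayes, 2-sided, Benjamini-Hochberg adjustment over 12422 probe sets). The code was tried on simulated data with independent noise, which does not show what differences these arrays can detect. The replicate number was a block because the comparison is defined by pairs. Subtracting group means, arrays of the same number correlated at 0.56, 0.73, 0.71 and 0.69, and each array correlated best with its own number. Other numbers came close: new array 3 correlated at 0.67 with amplified array 2, and new array 2 at 0.62 with amplified array 3. The pairing follows the numbers in the titles, and no label explains them. The interaction and the comparison with unamplified RNA were fitted without a block.

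Gene names follow the platform annotation, matched to RefSeq (GRCm38.p6): 10833 probe sets had 1 symbol, 396 several and 1193 were not listed. A gene is represented by its brightest probe set over all arrays. Named were the 12 largest differences in each direction among called genes without overlap and of one sign in all pairs, up to 4 called genes of each list (the 2 largest where none was called), 5 in each direction against unamplified RNA, and Fos, Egr1, Jun, Myc, Nr4a1, Actb and Gapdh. Gapdh has no probe set with 1 symbol outside the controls. Further list members are named beside the counts, and the motifs, the printed windows and those further names were chosen after values were seen. The comparison, members and lists were chosen with earlier results of these data known.

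Alternatives were the fit without the block, deposited and median-scaled values, quantile normalization over the compared arrays, an added 1 or 64, a minimum mean of 50 and leaving out each pair.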

Additional observations from a re-analysis of the deposited data

Results flagged for a closer look

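Of 326 groups of 4 arrays examined for a single array far from the others, 17 had one. Chance gives about 1 in 20, so the count is close to chance, and the cases below are only described. Newly transcribed array 1 was the distant one for Mrps21 (6.27), Rpl37a (8.35), Nop10 (7.03), Snrpg (6.36) and Foxc2 (9.44), all on the log2 scale, and lay below the other 3 each time. It also had the largest excess of the Gapdh 3′ over the 5′ control, at 3.36. Newly transcribed array 4 was distant for Gas2 (9.26), Tmsb10 (7.62) and Plk2 (10.15), and newly transcribed array 2 for Hmga2 (8.49). Amplified array 4 was distant for Sqle (10.21), Hnrnpa1 (6.91), Jun (8.62), Rrs1 (9.27) and Tmsb10 (7.97). Amplified array 2 was distant for H2az2 (10.85), and it had the smallest actin 3′ over 5′ excess of its group, at 1.40. The causes were not tested.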

How the results depend on the processing

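The count of probe sets that differed between newly transcribed and amplified total RNA depended on the setting. It was 2626 with the replicate number as a block, 503 with no replicate block, 1638 with an added 1 in place of 16, and 0 on values as deposited. Leaving out 1 pair at a time gave 818 to 3155 calls, 818 without pair 2, 1056 without pair 3 and 1409 without pair 4. The fit then has fewer arrays. Pairs 1 and 4 alone gave 0 calls, with 2089 at an unadjusted p below 0.05, and pairs 2 and 3 alone 2301. The other settings gave 2067 to 2843 calls. The called probe sets that a setting tested kept their sign in each of these settings, which for the fit without the block follows from its construction. Of the 2626, 2620 had the same sign in all 4 pairs, so leaving out pairs could hardly change a sign. Of the calls, 52.4% were higher, against 30.2% without the block (152 higher, 351 lower). Of 160 named genes none changed sign when called, and 100 lost their call without the block, 151 on deposited values and 71, 57 and 42 without pair 2, 3 or 4. The 12 lists plotted by pair kept their side of 0 with pairs 1 and 4 alone and with pairs 2 and 3 alone, as 1.17 and 1.31 for the early transcription factors and -1.26 and -1.18 for oxidative phosphorylation. Their medians lay on one side of 0 in each single pair, so this outcome was nearly settled in advance. The interaction with serum called 0 in every setting, although deposited values moved its median to -0.53. Against unamplified total RNA, the block gave 2197 and deposited values 2045 calls (762 higher, 1283 lower, so 37.3% higher against 49.5%). Leaving out 1 replicate gave 1177 to 1853, 1246 without replicate 2, 1313 without replicate 3 and 1177 without replicate 4. The numbers of new and unamplified arrays did not pair (0.19, 0.05, 0.20 and 0.16). The causes of these shifts were not tested. Dim probe sets limit what can be seen, since 7 of the 2485 dimmest were called.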

Other observations

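Some gene families stood out when the lists were read through, and they were chosen after their values were seen. Over all genes 13.6% were called higher and 12% lower. Of 18 glutathione transferase genes, which detoxify reactive compounds, 11 were called lower and 0 higher, with Gstk1 (-2.63), Mgst1 (-2.58) and Gstm2 (-2.50) the lowest and a family median of -1.44. The 3 peroxiredoxins measured, Prdx4 (-2.85), Prdx3 (-1.38) and Prdx2 (-1.22), were all called lower. Of 16 prolyl isomerases of the cyclophilin and FKBP families 6 were called lower, with Fkbp7 and Ppib (-2.37) in front, and 2 higher, Ppif (1.77) and Fkbp5 (1.02). Without the pairing 7 glutathione transferases, 2 peroxiredoxins and 4 prolyl isomerases were called lower and 1 isomerase higher.

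On the higher side, 3 of 8 nucleoporin genes were called, Nup62 (1.93), Nup54 (1.82) and Nup50 (1.81), and the other 5 lay between -0.05 and 0.30. Of 28 genes of the MAP kinase cascades 10 were called higher and 0 lower, among them Mapk6 (1.41), Mapk7 (1.38) and Mapk14 (1.29). Of 9 dual-specificity phosphatases 5 were called higher and 0 lower, Dusp6 (2.20), Dusp16 (1.36), Dusp1 (1.28), Dusp11 (0.76) and Dusp12 (0.73). Ubiquitin-specific proteases had 6 of 27 called higher and 0 lower, led by Usp2 (1.28) and Usp38 (1.26). Without the pairing 2 nucleoporin genes, 1 gene of the MAP kinase cascades, 1 dual-specificity phosphatase and 0 ubiquitin-specific proteases were called. Other families counted were Rab (6 higher and 5 lower of 39), DEAD box (5 and 1 of 23), TAF (4 and 1 of 9) and forkhead (3 and 0 of 26). RNA polymerase II had 2 and 2 of 10, Mediator 2 and 0 of 12 and V-ATPase 1 and 3 of 13. Sox genes had 1 and 0 of 13, annexins with S100 genes 0 and 2 of 20.

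Arrays 1 and 4 stood apart from arrays 2 and 3 in both kinds of RNA. The deviations from the group means of new array 1 correlated at 0.43 with amplified array 4 and at -0.65 with amplified array 2.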
